A study of Homo sapiens with 8 samples.

Results

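The genes described here are 10 genes of class I antigen presentation, HLA-B, HLA-C, HLA-E, HLA-F, B2M, TAP1, TAP2, PSMB8, PSMB9 and NLRC5, out of 43317 genes on the array. They were chosen by name, and every probe that the array design assigns to them was taken, 17 probes in all. Each gene was read from its brightest probe, and on every array all 10 genes stood well above background in 1 channel or both. RNA was hybridised to 8 Agilent arrays of 60-base probes that share 1 slide, with mock cells in Cy3 (green) and transfected cells in Cy5 (red).

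FaDu cells, a line from a squamous cell carcinoma of the hypopharynx, were transfected with miR-99a-5p on 1 array and with miR-99a-3p on another. PC3 cells, a prostate cancer line, were transfected with miR-150-5p, miR-150-3p, miR-99a-3p or miR-100-3p, with 1 array for each. PANC-1 cells, a pancreatic cancer line, were transfected with the siRNA si-FOXQ1-1 or si-FOXQ1-2, both against the transcription factor FOXQ1, again with 1 array for each. The sample labels describe the mock cells as not transfected, and no array here carries a control RNA, so the effect of transfection itself and that of the RNA transfected cannot be told apart. Likewise the dyes were never swapped, and dye and treatment cannot be told apart. With 1 array per condition no test between conditions was possible. Every ratio below is the log2 of transfected over mock signal, and its error is the scanner software's error of the spot or, for B2M with 7 to 10 usable spots per array, the SD between spots. These errors cover the measurement on the array only, and the number of arrays limits the precision.

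Class I molecules show peptides from inside the cell to CD8 T cells. The proteasome cuts proteins into peptides, the TAP transporter carries them into the endoplasmic reticulum, and a loading complex places them on a heavy chain (such as HLA-B, HLA-C, or the less polymorphic HLA-E and HLA-F) paired with the light chain B2M. PSMB8 and PSMB9 replace constitutive catalytic subunits to form the immunoproteasome, and NLRC5 is a coactivator of the class I promoters. Interferons are known to raise most of these genes together through STAT and IRF transcription factors. Tumour cells often carry low levels of them.

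The miRNAs are given by their sequences because 1 pair of them is closely related. miR-99a-3p and miR-100-3p come from related precursors, and PC3 cells received each. The mature sequences of 3 of the 5 transfected miRNAs were found in the RefSeq table (GRCh38.p14) and are written 5′ to 3′ with the seed, bases 2 to 8, in capitals.
miR-99a-3p (chr21:16539138-16539159, plus strand): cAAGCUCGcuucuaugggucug
miR-100-3p (chr11:122152240-122152261, minus strand): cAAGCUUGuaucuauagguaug
miR-99a-5p (chr21:16539101-16539122, plus strand): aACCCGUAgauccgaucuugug
miR-99a-3p and miR-100-3p differed at 5 bases, of which 1 lay in the seed. miR-99a-5p had another seed. miR-150-5p and miR-150-3p are named only.

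The promoters are shown because the genes are known to respond together, and the windows let the reader see matches to the letters searched. Promoter sequence from 250 bases before to 50 bases after the start was found in RefSeq (GRCh38.p14) for 8 of the 10 genes, all but HLA-E and NLRC5. The core of the interferon-stimulated response element was searched on both strands as GAAANNGAAA. It occurred in 5 of the 8 genes (HLA-F, B2M, TAP1, TAP2 and PSMB8), and in 3.57% of 35116 promoters of the same length. The matches in 4 of these genes and a match to the kappaB letters GGGATTCC in HLA-B are given in capitals, each in 60 bases on the gene's own strand.
B2M (chr15:44711351-44711410, plus strand): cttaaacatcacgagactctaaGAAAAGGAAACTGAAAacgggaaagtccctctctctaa
TAP1 (chr6:32853801-32853860, minus strand): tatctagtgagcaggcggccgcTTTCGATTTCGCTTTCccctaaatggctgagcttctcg
HLA-F (chr6:29723253-29723312, plus strand): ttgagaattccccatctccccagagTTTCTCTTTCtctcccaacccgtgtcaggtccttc
TAP2 (chr6:32838763-32838822, minus strand): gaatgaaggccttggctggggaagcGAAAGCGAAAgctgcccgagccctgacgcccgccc
HLA-B (chr6:31357322-31357381, minus strand): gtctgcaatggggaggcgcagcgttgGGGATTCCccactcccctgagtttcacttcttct
In B2M and TAP1, 2 overlapping matches formed a longer run. The matches of TAP1 and HLA-F lie on the strand opposite to the gene. PSMB8 held its match only at the second of its 2 annotated starts, 4 bases before it. The kappaB letters were in 1 of the 8 genes, against 1.12% of all promoters. The letters TTCNNNGAA, the core of the gamma-activated sequence, were in 2 of the 8 genes (TAP1 and PSMB8, each at the second start) and in 7.66% of all promoters. In all these counts a gene with a match at any of its starts was counted, while the shares are per promoter. TAP1 and PSMB8, with 2 starts each, thus had more sequence searched than 1 promoter. The CCAAT box occurred in 6 of the 8 genes and 34.6% of promoters, and the letters TGACG, part of the X2 box of class I promoters, in 6 of the 8 genes and 24.6% of promoters. TAP1 and PSMB9 lie head to head on opposite strands, their nearest annotated starts 488 bases apart. A match to these letters is a description and not a site of binding. The letters are fixed, so the lack of a match does not show that a promoter has no such element.

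As a group the genes were highest against mock cells on 3 of the 8 arrays. With miR-150-3p in PC3 cells all 10 ratios were above 0, with a median of 0.64. With miR-99a-3p in FaDu cells 9 of 10 were above 0, with a median of 0.78, and with miR-99a-3p in PC3 cells 8 of 10, with a median of 0.56. With miR-100-3p in PC3 cells the median was −0.31, and 2 of 10 were above 0, HLA-E and the dim NLRC5, whose transfected channel was not well above background. The other medians were 0.06 (FaDu miR-99a-5p), −0.07 (PC3 miR-150-5p), 0.01 (PANC-1 si-FOXQ1-1) and 0.17 (PANC-1 si-FOXQ1-2). The median of all detected genes lay between −0.03 and 0.02 on every array, and between 45.6% and 51.2% of them were above 0. The median for FaDu miR-99a-3p depended on the probe choice and was 0.41 when all probes of a gene were averaged. That average takes in dim probes. The second probes of TAP2 and NLRC5 were not well above background in both channels of any array. With them averaged in, TAP2 read 0.53 and NLRC5 0.39.

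Ratios above 1, more than a doubling of the signal, were found on 2 arrays. On the FaDu miR-99a-3p array they were PSMB9, TAP1 and TAP2, 3 of 10 genes where 8.25% of 19184 detected genes were above 1. On the PC3 miR-150-3p array they were PSMB9 and TAP1, 2 of 10 where 2.69% of all detected genes were. None of the 10 was above 1 on the other 6 arrays, where the share of all detected genes was 0.851% (FaDu miR-99a-5p), 0.664% (PC3 miR-150-5p), 4.23% (PC3 miR-99a-3p), 0.987% (PC3 miR-100-3p), 0.905% (PANC-1 si-FOXQ1-1) and 0.412% (PANC-1 si-FOXQ1-2). Of the 80 values only that of TAP2 in PC3 with miR-99a-3p was under −1, where 7.39% of detected genes were. On the other arrays the share of all genes below −1 was 4.86% (FaDu miR-99a-5p), 9.37% (FaDu miR-99a-3p), 4.49% (PC3 miR-150-5p), 6.68% (PC3 miR-150-3p), 3.34% (PC3 miR-100-3p), 3.31% (PANC-1 si-FOXQ1-1) and 3.29% (PANC-1 si-FOXQ1-2).

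**Figure D1:**
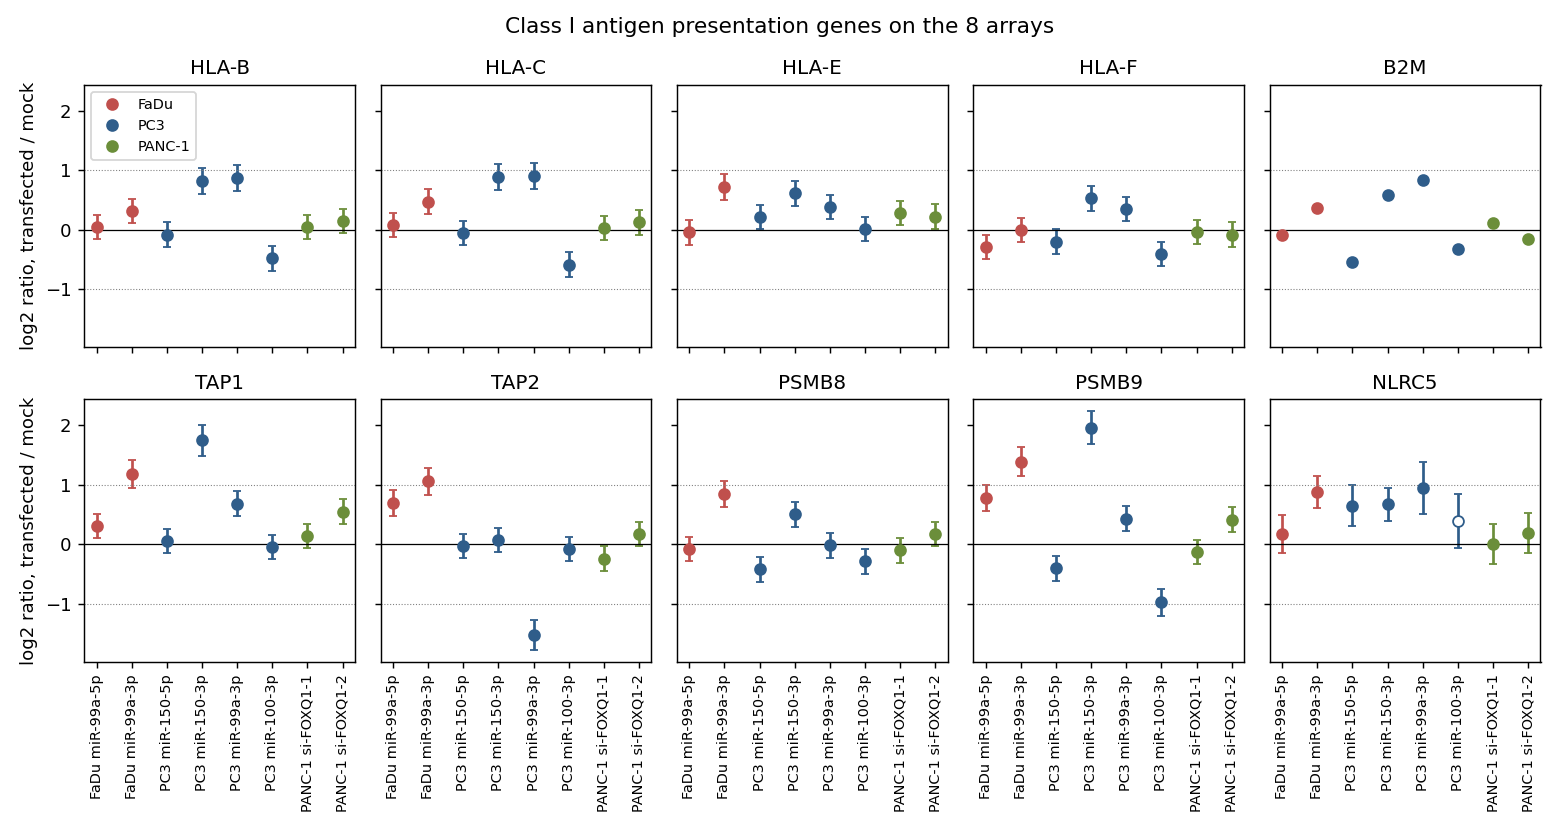
Log2 ratio of transfected over mock signal (y axis) of the 10 genes on the 8 arrays (x axis), coloured by cell line, with the spot error or, for B2M, the SD between 7 to 10 spots. Dotted lines mark 1 and −1, the open symbol is NLRC5 where its transfected channel was not well above background, and PSMB9 on the PC3 miR-150-3p array is the highest point at 1.96.

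HLA-B and HLA-C, the classical heavy chains, had nearly equal ratios on all arrays. HLA-B was 0.83 ± 0.22 with miR-150-3p and 0.88 ± 0.22 with miR-99a-3p in PC3 cells, its signals going from 6466 to 11458 and from 7599 to 13951. It was −0.48 ± 0.21 with miR-100-3p and −0.08 ± 0.20 with miR-150-5p in the same line, 0.05 ± 0.20 (miR-99a-5p) and 0.31 ± 0.21 (miR-99a-3p) in FaDu, and 0.04 ± 0.20 and 0.15 ± 0.20 with the siRNAs in PANC-1. The PC3 arrays thus held both its highest and its lowest values, and in PANC-1 it stayed within the error. A second HLA-B probe gave 0.95 with miR-150-3p and 1.01 with miR-99a-3p in PC3, and 0.56 with miR-99a-3p in FaDu.

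HLA-C was 0.88 ± 0.22 with miR-150-3p, 0.90 ± 0.22 with miR-99a-3p, −0.06 ± 0.20 with miR-150-5p and −0.59 ± 0.21 with miR-100-3p in PC3 cells. It was 0.08 ± 0.20 with miR-99a-5p and 0.47 ± 0.21 with miR-99a-3p in FaDu, and 0.03 ± 0.20 and 0.12 ± 0.20 in PANC-1. No array separated it from HLA-B by more than the combined spot error. These readings are not independent, since the brightest probes of HLA-B (hg19 chr6:31321663-31321722) and HLA-C (hg19 chr6:31321644-31321703) overlap in position in the array's annotation and share a run of 41 of their 60 bases. The second HLA-C probe lies elsewhere (chr6:31236617-31236676), shares at most 7 bases in a row with those HLA-B probes and gave 0.81 with miR-150-3p, 0.78 with miR-99a-3p, −0.12 with miR-150-5p and −0.52 with miR-100-3p in PC3. On that probe FaDu cells gave 0.01 and 0.40, and PANC-1 cells 0.08 and 0.25. The order of the arrays was thus much the same on a probe with no long run in common with HLA-B. The array's annotation nevertheless assigns the 2 brighter HLA-B probes to RefSeq transcripts that it also gives for this second HLA-C probe. The brightest HLA-C probe, used for the HLA-C values, is in turn placed at the HLA-B probes and not at the second HLA-C probe. How far these probes read the other gene's transcripts was not tested. The HLA-B values may thus not be those of HLA-B alone, nor the HLA-C values those of HLA-C alone.

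HLA-E presents leader peptides of other class I chains to NKG2A receptors of natural killer cells. It was 0.72 ± 0.21 with miR-99a-3p and −0.05 ± 0.20 with miR-99a-5p in FaDu. In PC3 it was 0.61 ± 0.21 with miR-150-3p, 0.38 ± 0.21 with miR-99a-3p, 0.21 ± 0.20 with miR-150-5p and 0.02 ± 0.20 with miR-100-3p, and in PANC-1 0.28 ± 0.21 and 0.22 ± 0.21. The brightest probe (hg19 chr6:30460882-30460941) and the second one (chr6:30460729-30460788) disagreed in FaDu. The second probe read −0.33 with miR-99a-3p and −0.31 with miR-99a-5p there, while it read 0.60 with miR-150-3p and 0.40 with miR-99a-3p in PC3. So HLA-E was higher on both probes in PC3 with these miRNAs, and had no settled direction in FaDu with miR-99a-3p.

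HLA-F, a chain found mostly inside the cell, was 0.53 ± 0.21 with miR-150-3p, 0.35 ± 0.21 with miR-99a-3p, −0.20 ± 0.20 with miR-150-5p and −0.41 ± 0.21 with miR-100-3p in PC3. It was −0.01 ± 0.20 with miR-99a-3p and −0.29 ± 0.21 with miR-99a-5p in FaDu, and −0.04 ± 0.20 and −0.08 ± 0.20 in PANC-1. HLA-F was the one gene of the 10 that was not above 0 in FaDu cells with miR-99a-3p. Its probe lies at hg19 chr6:29693280-29693338. A second, much dimmer probe gave 0.90 with miR-150-3p in PC3 and −0.13 with miR-99a-3p in FaDu. In PANC-1 it parted from the brighter probe, at −0.82 with si-FOXQ1-1 and 0.39 with si-FOXQ1-2.

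**Figure D2:**
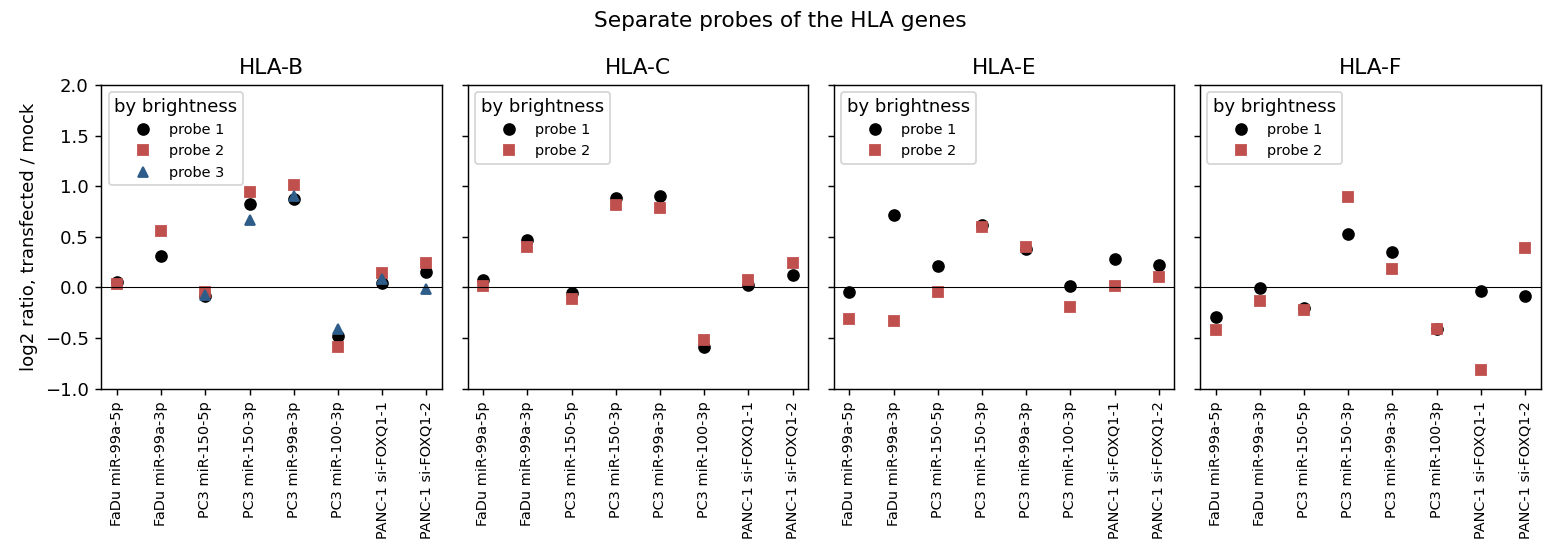
Log2 ratio (y axis) of each probe of HLA-B, HLA-C, HLA-E and HLA-F on the 8 arrays (x axis), with probes numbered from the brightest. The third HLA-B probe is left out in FaDu, where it was not well above background, and the HLA-E probes part on the FaDu miR-99a-3p array, at 0.72 and −0.33.

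B2M, the light chain shared by all class I molecules, had the smallest errors, each the SD between 7 to 10 spots (hg19 chr15:45007773-45007832). In PC3 it was 0.84 ± 0.03 with miR-99a-3p, 0.59 ± 0.03 with miR-150-3p, −0.33 ± 0.02 with miR-100-3p and −0.54 ± 0.01 with miR-150-5p. In FaDu it was 0.37 ± 0.04 with miR-99a-3p and −0.09 ± 0.03 with miR-99a-5p, and in PANC-1 0.11 ± 0.04 with si-FOXQ1-1 and −0.15 ± 0.03 with si-FOXQ1-2. Every array thus lay farther from 0 than the spread between spots, and the PANC-1 siRNAs lay on opposite sides of it. That spread leaves out errors common to all spots of an array. The scanner software's spot error for B2M, used for the other genes, was 0.20 to 0.22. By that error, the FaDu value with miR-99a-5p and both PANC-1 values lay within the error of 0. B2M with miR-150-5p was the lowest of the 10 genes on that array.

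TAP1 and TAP2 together form the peptide transporter. TAP1 (hg19 chr6:32813210-32813269) was 1.75 ± 0.26 with miR-150-3p in PC3, where its signal went from 3129 to 10507 and 99.5% of detected genes had a lower ratio. It was 0.68 ± 0.21 with miR-99a-3p, 0.06 ± 0.20 with miR-150-5p and −0.04 ± 0.20 with miR-100-3p in PC3. It was 1.18 ± 0.23 with miR-99a-3p and 0.31 ± 0.21 with miR-99a-5p in FaDu, and 0.14 ± 0.20 and 0.54 ± 0.21 with si-FOXQ1-1 and si-FOXQ1-2 in PANC-1. TAP1 was thus above 0 on 7 of 8 arrays, and lowest, within its error of 0, with miR-100-3p.

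TAP2 (hg19 chr6:32793222-32793281) was −1.53 ± 0.25 with miR-99a-3p in PC3, with signals of 1404 in mock and 487 in transfected cells, and 3.33% of detected genes had a lower ratio. It was 0.07 ± 0.20 with miR-150-3p, −0.03 ± 0.20 with miR-150-5p and −0.08 ± 0.20 with miR-100-3p in the same line. In FaDu it was 1.06 ± 0.23 with miR-99a-3p and 0.69 ± 0.21 with miR-99a-5p, and in PANC-1 −0.24 ± 0.21 and 0.17 ± 0.20. The same miRNA thus came with a TAP2 ratio above 1 in FaDu and below −1 in PC3. TAP2 minus TAP1 was −2.21 ± 0.33 with miR-99a-3p and −1.67 ± 0.33 with miR-150-3p in PC3, but −0.08 ± 0.29 with miR-150-5p and −0.04 ± 0.29 with miR-100-3p, both within the combined error. In FaDu it was 0.38 ± 0.30 with miR-99a-5p and −0.12 ± 0.32 with miR-99a-3p, and in PANC-1 −0.38 ± 0.29 and −0.37 ± 0.29. The second TAP2 probe was not well above background in both channels of any array, so these values rest on 1 probe.

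The immunoproteasome subunits also had unequal ratios. PSMB9 (hg19 chr6:32823918-32823977) was 1.96 ± 0.27 with miR-150-3p in PC3, with signals of 545 in mock and 2120 in transfected cells, and 99.6% of detected genes were lower. In the same line it was 0.43 ± 0.21 with miR-99a-3p, −0.40 ± 0.21 with miR-150-5p and −0.98 ± 0.23 with miR-100-3p. In FaDu it was 1.39 ± 0.24 with miR-99a-3p and 0.77 ± 0.22 with miR-99a-5p, and in PANC-1 −0.13 ± 0.20 and 0.41 ± 0.21. Its range over the arrays, 2.94, was the widest of the 10 genes. With the mean of the 4 PC3 mock channels as the control, the value with miR-100-3p was −0.67.

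PSMB8 (hg19 chr6:32810023-32810490) was 0.85 ± 0.22 with miR-99a-3p and −0.08 ± 0.21 with miR-99a-5p in FaDu. It was 0.51 ± 0.21 with miR-150-3p, −0.02 ± 0.21 with miR-99a-3p, −0.29 ± 0.21 with miR-100-3p and −0.42 ± 0.21 with miR-150-5p in PC3, and −0.10 ± 0.20 and 0.17 ± 0.21 in PANC-1. PSMB9 minus PSMB8 was 1.45 ± 0.34 with miR-150-3p, 0.86 ± 0.30 with miR-99a-5p in FaDu and −0.69 ± 0.31 with miR-100-3p. PSMB9 thus lay farther from 0 than PSMB8 on these arrays, while with miR-150-5p they differed by 0.02 ± 0.30.

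NLRC5 (hg19 chr16:57077428-57077487) was dim, with mock signals between 27.2 and 97.3, and its errors were the largest. It was 0.88 ± 0.26 with miR-99a-3p and 0.17 ± 0.32 with miR-99a-5p in FaDu. It was 0.94 ± 0.44 with miR-99a-3p, 0.67 ± 0.27 with miR-150-3p and 0.65 ± 0.34 with miR-150-5p in PC3, and 0.00 ± 0.34 and 0.19 ± 0.34 in PANC-1. With miR-100-3p its transfected channel was not well above background, and the processed signals of 27.2 and 35.7 allow no fold. NLRC5 was above 0 by more than its error on 4 of the 7 arrays where both channels stood well above background. With the mean of the PC3 mock channels as the control the ratio with miR-99a-3p was 0.03, and with another background correction 0.16, so its value there was not settled. The same changes gave 0.22 and 0.25 with miR-150-5p, and 0.60 and 0.38 with miR-150-3p. The other background correction gave 0.55 with miR-99a-3p in FaDu. The size of these values was thus not settled either.

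Arrays of the same line were set against each other with the combined spot error, which holds no biological spread. With the 2 arms of miR-150 in PC3 cells, all 10 genes were higher with miR-150-3p than with miR-150-5p, 8 of them by more than the combined error, where 23.5% of all genes detected on both arrays were, and by a median of 0.92. The difference was 2.36 ± 0.34 for PSMB9, 1.69 ± 0.33 for TAP1 and 1.13 ± 0.04 for B2M, and 0.10 ± 0.29 for TAP2. With the 2 arms of miR-99a in FaDu cells, all 10 genes were higher with miR-99a-3p, 8 of them by more than the combined error, where 29.8% of all genes were, by a median of 0.54 and by between 0.27 for HLA-B and 0.93 for PSMB8. The 3p arm of each miRNA thus gave the higher values in its line, HLA-E in FaDu excepted on the second probe, where both arms read nearly the same.

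miR-99a-3p and miR-100-3p, whose seeds differ at 1 base as printed above, were both transfected into PC3. Of the 9 genes above background in both channels of both arrays, NLRC5 left out, 8 were higher with miR-99a-3p, 7 of them by more than the combined error, where 27.6% of all detected genes were. TAP2 was lower, at −1.45 ± 0.32. The differences were 1.49 ± 0.30 for HLA-C, 1.41 ± 0.31 for PSMB9, 1.36 ± 0.30 for HLA-B and 1.17 ± 0.03 for B2M. PSMB8 differed by less than the error, at 0.27 ± 0.29. The siRNAs si-FOXQ1-1 and si-FOXQ1-2 differed by more than the combined error for 4 of the 10 genes, where 31.6% of all genes did in either direction. They were PSMB9 (0.54 ± 0.29 higher with si-FOXQ1-2), TAP2 (0.41 ± 0.29), TAP1 (0.41 ± 0.29) and B2M (lower, −0.26 ± 0.05). B2M was counted by the SD between its spots, which is finer than the scanner software's spot error of 0.20 on each of these arrays. The siRNA target FOXQ1 itself read −2.16 ± 0.29 and −2.12 ± 0.28 on these arrays.

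miR-99a-3p was the one RNA used in both FaDu and PC3. The FaDu value was the higher one for TAP2 (by 2.58 ± 0.34), PSMB9 (0.96 ± 0.32), PSMB8 (0.87 ± 0.30), TAP1 (0.49 ± 0.31) and HLA-E (0.34 ± 0.30). The PC3 value was the higher one for the heavy chains HLA-B, HLA-C and HLA-F, with FaDu minus PC3 between −0.56 and −0.36, and for B2M (−0.47 ± 0.04). NLRC5 differed by less than its error, at −0.06 ± 0.51. Thus the transporter and immunoproteasome genes were higher in FaDu and the chains HLA-B, HLA-C, HLA-F and B2M in PC3, with HLA-E depending on the probe. The median of 16 constitutive proteasome genes was likewise higher in FaDu, at 0.34 against −0.45 in PC3. These differences between the lines were not tested, since each has 1 array.

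Among the other class I and class I-like chains, 13 of 14 had a probe and 9 or 10 were detected per array. The stress ligands of the NKG2D receptor were the ones to pass 1 or −1, MICB at 1.48 and ULBP1 at −2.08 with miR-99a-3p in FaDu, besides MR1, which presents metabolites, at −1.02 with miR-150-5p. HLA-B and HLA-C share much sequence with other HLA genes, and binding of their transcripts to each other's probes was not tested beyond the shared runs given above.

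TAPBP (tapasin), which bridges TAP and the heavy chain, was 1.06 with miR-99a-3p and 0.89 with miR-150-3p in PC3, 0.73 with miR-99a-3p in FaDu, 0.39 with miR-150-5p and 0.08 with miR-100-3p in PC3, 0.42 with miR-99a-5p in FaDu, and 0.23 and 0.37 in PANC-1. Its ratio was thus above 0 on all 8 arrays, though the 0.08 with miR-100-3p is smaller than the median spot error of that array, 0.21. In the list of peptide loading genes, CANX (calnexin) was −2.36, HSPA5 −1.93 and PDIA3 −1.33 in FaDu with miR-99a-3p. ERAP2, a peptide-trimming enzyme, was 1.37 on that array. With the 9 genes of this list the median was −0.16 on that array, with 1 above 1 and 3 below −1. Of all detected genes there, 8.25% were above 1 and 9.37% below −1. CANX was −1.01 in PC3 with miR-99a-3p, and LNPEP was −1.34 with si-FOXQ1-1. On the other arrays no gene of the list passed 1 or −1.

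PSMB10, the third immunoproteasome subunit, did not follow PSMB9. It was −1.38 with miR-99a-3p, 0.21 with miR-150-3p, 0.36 with miR-150-5p and −0.14 with miR-100-3p in PC3, 0.29 (miR-99a-5p) and 0.17 (miR-99a-3p) in FaDu, and −0.19 and 0.10 in PANC-1. In PC3 with miR-99a-3p both PSMB10 and TAP2 were thus below −1 while PSMB9 (0.43) and TAP1 (0.68) were above 0. Of 16 genes of the constitutive proteasome, its assembly factor POMP and its activator PSME3 included, none passed 1 or −1 on any array. Their median was −0.45 with miR-99a-3p and −0.05 with miR-150-3p in PC3, and 0.34 with miR-99a-3p in FaDu, against 0.56, 0.64 and 0.78 for the 10 genes.

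IRF1, a transcription factor of the interferon response, differed between the arrays on which the 10 genes were high. With miR-150-3p in PC3 cells 4 of 13 detected factors of the pathway were above 1, where 2.69% of all detected genes were. IRF1 was 1.16 there, and IRF9 and STAT2, which act together downstream of type I interferon receptors, were 2.21 and 1.38. With miR-99a-3p IRF1 was 0.13 in PC3 and 0.81 in FaDu. On the remaining arrays it lay between −0.45 (PANC-1 si-FOXQ1-1) and 0.28 (PC3 miR-100-3p). NFYA, a subunit of the CCAAT-binding factor, was 1.58 in FaDu with miR-99a-3p. IRF9 and STAT2 were thus above 1 together with PSMB9 and TAP1 on the miR-150-3p array, while on the miR-99a-3p arrays IRF9 was 0.82 (PC3) and −0.28 (FaDu) and STAT2 0.15 and −0.96.

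Interferon genes had 7 probed members of 11, and 2 or 3 were detected per array. IFNL2 and IFNL1, type III interferons, read 1.90 and 1.37 with miR-99a-5p in FaDu, where the median of the 10 genes was 0.06, and IFNL2 read 1.13 with si-FOXQ1-1. The interferons below −1, IFNL2 with miR-150-5p and IFNE with miR-150-3p, had 1 channel that was not well above background. IFNB1 and IFNG were not well above background on any array. Of the interferon receptors, IFNGR1 was 1.01 with miR-99a-3p in PC3, and IFNLR1 was 1.72 and 1.00 with si-FOXQ1-1 and si-FOXQ1-2.

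**Figure D3:**
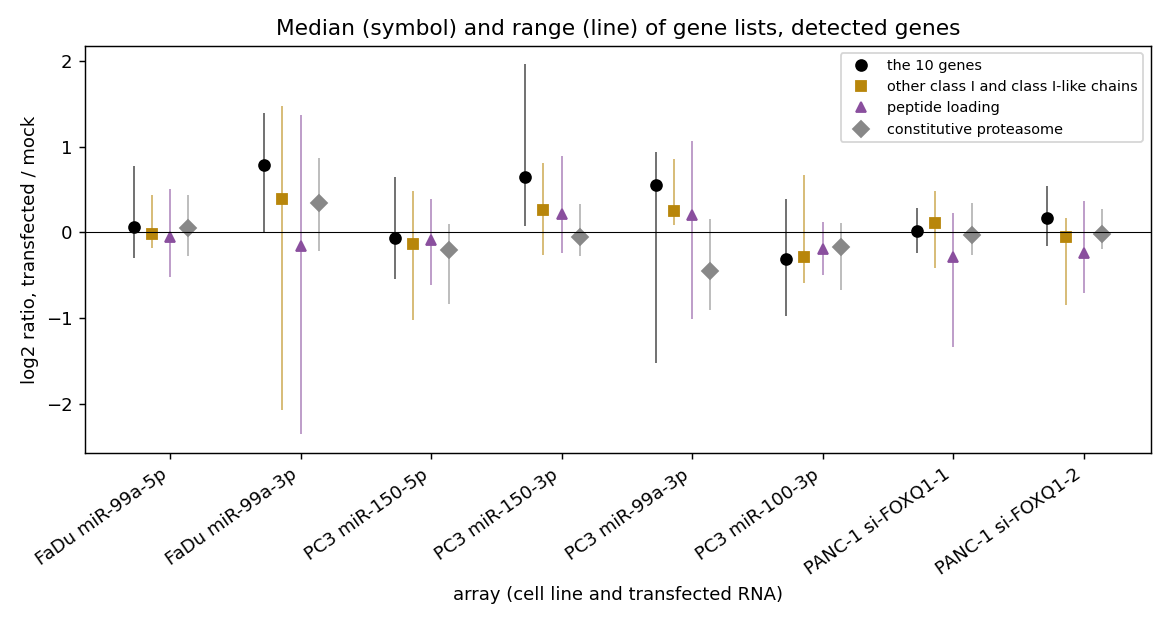
Median (symbol) and range (line) of the log2 ratio of transfected over mock signal (y axis) for the 10 genes and 3 other lists of the pathway on the 8 arrays (x axis), over the detected genes of each list. The 10 genes have a median above 0.5 on 3 arrays, while the constitutive proteasome lies between −0.45 and 0.34.

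Mock cells were compared between lines with the mock channel scaled between arrays, on 4 PC3, 2 FaDu and 2 PANC-1 arrays, given as mean ± SD of the log2 signal of 1 gene. The labels do not say whether mock channels of a line are separate cultures, so the SD may be technical. An exact two-sided permutation test cannot go below p = 0.0667 for 4 against 2 channels or 0.333 for 2 against 2, and none is reported. FaDu and PC3 mock channels did not overlap for 7 of the 10 genes, against 84.3% of all genes, and 4 of these were higher in FaDu by over 1, where 20.5% of all 20603 genes were above 1 without overlap and 22.4% below −1. They were HLA-C, HLA-F, PSMB9 and NLRC5, and none was below −1.

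HLA-C was 15.53 ± 0.04 in FaDu, 13.32 ± 0.04 in PC3 and 13.70 ± 0.02 in PANC-1, so that FaDu stood 4.64-fold above PC3. HLA-F was 14.54 ± 0.02, 13.44 ± 0.04 and 13.81 ± 0.09 in the same order, and B2M 14.62 ± 0.02, 13.83 ± 0.03 and 14.27 ± 0.01. HLA-B was 13.25 ± 0.02 in FaDu, 12.46 ± 0.03 in PC3 and 12.61 ± 0.18 in PANC-1, where the latter 2 overlapped. FaDu was thus highest for HLA-B, HLA-C, HLA-F and B2M. HLA genes differ in sequence between people, and how well the probes match the alleles of each line was not tested. The HLA-C level was read from the probe that overlaps an HLA-B probe in position, so it may not be that of HLA-C alone.

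PSMB9 had the widest spread between lines in mock cells, at 11.47 ± 0.04 in PANC-1, 10.57 ± 0.12 in FaDu and 8.88 ± 0.16 in PC3, so that PANC-1 stood 6.04-fold above PC3. TAP1 was 12.07 ± 0.09 in PANC-1, 11.29 ± 0.05 in PC3 and 11.19 ± 0.00 in FaDu. NLRC5 was 6.24 ± 0.05 in FaDu, 5.77 ± 0.13 in PANC-1 and 5.00 ± 0.49 in PC3, and FaDu minus PC3 was 1.25, or 0.46 with another background correction. TAP2 (9.96 in FaDu, 9.98 in PC3), PSMB8 (9.72 and 9.62) and HLA-E (16.52 and 16.58) overlapped between FaDu and PC3. PANC-1 was highest for the transporter and immunoproteasome genes TAP1, TAP2, PSMB8 and PSMB9.

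Between FaDu and PANC-1 9 of the 10 genes did not overlap, against 89.7% of all genes, and HLA-C alone was over 1 apart, at 1.83, where 18.9% of all genes were above 1 and 21.1% below −1. Between PANC-1 and PC3 8 of the 10 did not overlap, against 79.7% of all genes, and PSMB9 alone was over 1 apart, at 2.59, where 16.6% of all genes were above 1 and 17.3% below −1. PC3 had the lowest mean for HLA-B, HLA-C, HLA-F, B2M, PSMB8, PSMB9 and NLRC5.

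**Figure D4:**
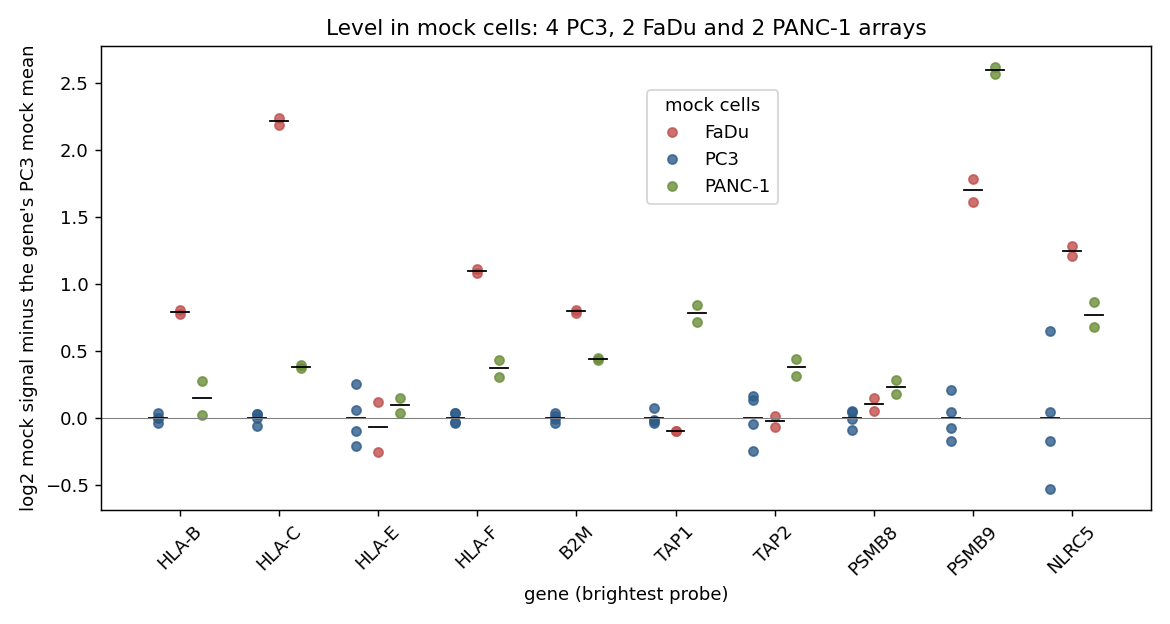
Log2 mock signal of each gene minus that gene's mean over the 4 PC3 mock channels (y axis) for the 10 genes (x axis), 1 point per array and a line at the mean of each cell line. FaDu stands 2.21 above PC3 for HLA-C, and PANC-1 stands 2.59 above PC3 for PSMB9.

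The lines were checked against markers of their tissue. The epithelial markers EPCAM, KRT8, KRT18 and CDH1 were well above background in all mock channels, and the squamous markers KRT5, KRT14, TP63 and DSG3 in FaDu only. The other squamous marker, KRT6A, was above background in both FaDu and in 2 of 4 PC3 mock channels. KLK3 (PSA), a marker of luminal prostate cells, was not above background in PC3. The duct markers KRT7, KRT19 and SOX9 were above background in PANC-1 but also in all PC3 and FaDu mock channels, so they do not set PANC-1 apart, and the acinar markers PRSS1 and CPA1 were not above background in PANC-1. MS4A1 (B cells), HLA-DRA and CD74 (class II) were not above background in any mock channel. Other genes of these lists were above it in all mock channels. They were the class II genes HLA-DRB1 (at 113 to 296), HLA-DPA1, HLA-DQB1 and HLA-DMA, and the leukocyte marker CD14 (at 50.1 to 313). Of 11 class II genes between 4 and 6 were detected per array, and 0 were above 1 on any of the 8. Below −1 were HLA-DQB1 (−1.31) with miR-99a-3p in FaDu, HLA-DOA (−2.01) with miR-99a-3p in PC3 and HLA-DPA1 (−1.54) with miR-100-3p, each with a transfected channel not well above background. PTPRC, the pan-leukocyte marker, was above background in 2 of 4 PC3, 2 of 2 FaDu and 2 of 2 PANC-1 mock channels at 17.1 to 48.1, and LCP1 in PC3 and FaDu at 1180 to 2030.

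Several of these markers differed from mock on the arrays where the 10 genes were high, and their part in the result was not tested. In FaDu with miR-99a-3p all 5 squamous markers were below 0, with a median of −1.66. Of the 5, 4 were below −1, where 9.37% of all detected genes were. CD14 was 2.54 on that array and the fibroblast marker COL1A1 1.53. In PC3 with miR-99a-3p COL1A1 was 2.84 and PDGFRA 1.52, the 2 detected of 5 fibroblast markers, and with miR-150-3p the 3 detected were PDGFRA at 1.02, COL1A1 at 0.54 and LUM at 2.54, the last with a mock channel not well above background. Leukocyte markers on the PC3 miR-150-3p array, 2 detected of 8 probed, read −0.48 for CD14 and 0.29 for LCP1. On all arrays between 81 and 178 of 60901 gene spots were flagged as outliers, mock signals were well above background at 44.5% to 49.2% of spots and transfected signals at 37.2% to 41.8%, and no spot was saturated.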

How the data were processed

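The authors hybridised mock RNA (Cy3) and transfected RNA (Cy5) of each condition to 1 array and processed the scan with Agilent Feature Extraction 10.7.3.1 (hg19 annotation). The intensities they deposited (processed signals) had the background subtracted and the dyes normalized by that software, which puts a surrogate in place of a signal near the background. The log10 ratios (Cy5 over Cy3) in the deposited files were computed from them. The log10 ratios deposited for the series equal the scanner's, with a largest difference of 0.

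From these files, log10 ratios were multiplied by 3.32 to the log2 scale. Control spots and outlier-flagged spots were left out, spots of a probe averaged, and the brightest of 58201 probes kept per gene, leaving 43317 genes. A gene counted as detected where 1 channel or both stood well above background. No test was run, with 1 array per condition. Mock levels were scaled between arrays with limma 3.58.1 (R 4.3.3, Aquantile). Samples were grouped by their labels. Alternatives were limma's normexp (offset 50) with loess, which was tested on simulated data, other probe rules, filters, thresholds and mock controls. The text names all 10 genes, and of the other pathway lists, up to 5 highest and 5 lowest past 1 or −1 and TAPBP, PSMB10 and IRF1 whatever their values. Some genes that this rule names are not reported here. The genes and lists were chosen with earlier results of these data known. Tables were made in Python 3.11.15 with pandas 2.3.3 (numpy 2.4.6).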

Additional observations from a re-analysis of the deposited data

Results flagged for a closer look

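TAP2 lay on opposite sides of 0 with miR-99a-3p in the cell lines that received it. It was 1.06 ± 0.23 in FaDu and −1.53 ± 0.25 in PC3 on the log2 scale, a difference of 2.58, with 1 array in each line, so the difference was not tested. It was the one gene of the 10 whose values in these lines lay on opposite sides of 0 by more than their spot errors. The values rest on 1 probe, as the second TAP2 probe was dim. The other TAP2 values in PC3 lay between −0.08 and 0.07.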

How the results depend on the processing

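No paired analysis was possible because the design gives every condition a single array. The median over the 10 genes moved by more than the median spot error in FaDu with miR-99a-3p only, to 0.55 with limma's normexp and loess, 0.41 with all probes averaged and 0.18 with the probe of the lowest ratio. The medians kept within the error in 57 other comparisons, those with HLA-B and HLA-C averaged to 1 value, chosen after seeing the data, among them. Of these, 8 used the series values, which are the same numbers and could not move. With a threshold of 0.58 in place of 1, the genes above it numbered 2 (FaDu miR-99a-5p, 4.9% of all detected genes), 6 (FaDu miR-99a-3p, 18.3%), 1 (PC3 miR-150-5p, 4.57%), 7 (PC3 miR-150-3p, 9.71%) and 5 (PC3 miR-99a-3p, 13.0%). With a threshold of 2 there were 0 in FaDu miR-99a-3p and 0 in PC3 miR-150-3p. Of the single ratios, 476 recomputed values stayed within the error and 43 did not. Many of the 476 could not move, among them the 80 series values, the 79 values under the channel filter and the probe rules for genes with 1 probe. By setting, 15 moved and 65 did not with the lowest probe, and 11 and 69 with probes averaged. Both of these probe rules, for the medians as for the single ratios, took in probes that were not well above background. With normexp and loess the numbers were 9 and 71, and with the mean of the PC3 mock channels 8 and 32. Of the differences between mock lines, 202 stayed within the spread and 18 did not. NLRC5, near the background, was the least precise.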

Other observations

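Among the 5 genes whose log2 ratios most resembled the median of the 10 genes over the 8 arrays were lnc-NPAT-2 (Pearson's r 0.99), CTC-338M12.4 (0.97), MOAP1 (0.97) and NGRN (0.96), of 13256 genes above background in both channels of all arrays. MOAP1, a modulator of apoptosis, was 0.73 with miR-150-3p in PC3 and 0.69 with miR-99a-3p in FaDu. Pearson's r leaves out the size of the ratios. On the same arrays lnc-NPAT-2 was 0.16 and 0.34, and with miR-99a-3p in PC3 it was 0.09. Without the FaDu miR-99a-3p array, 2 of the 5 were still among the 5 most alike, so the order depends on 1 array. The arrays share a slide and a dye orientation, and the likeness is a description over 8 arrays. Of the 10 genes themselves, 8 had an r with their median between 0.78 and 0.90, TAP2 had 0.05, and NLRC5 was not above background in both channels of all arrays. Each gene is part of that median, so its r is partly fixed in advance. Even so, the 8 ranked only between 55 (HLA-C) and 374 (HLA-F) among the genes compared, so many other genes followed the median more closely.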
